A study of Mus musculus with 12 samples.

Results

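The genes described here are 9 transcription factors of the myeloid lineage, Spi1, Cebpa, Cebpb, Cebpd, Irf8, Irf4, Gfi1, Klf4, and Runx1. They were taken by symbol from the 35303 symbols of the count table, and the members were chosen with earlier results of these data known. All 9 were found, and all 9 passed the only filter used, a sum of at least 2 counts in the 12 libraries together, as did 17676 symbols in all. Their levels were measured by bulk RNA-seq in MDSCs, immunosuppressive myeloid cells, in 3 groups of 4 libraries.

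The question of the comparisons was how nanoparticles (NPs) on the cell surface, with and without rapamycin, an inhibitor of mTOR, altered the transcriptome. MDSC libraries came from unmodified cells, MDSC-NP-Blk libraries from cells carrying blank NPs of the biodegradable polymer PLGA, and CITED libraries from cells carrying rapamycin-loaded PLGA NPs. Thus MDSC-NP-Blk differ from MDSC by the particle and its attachment, and CITED from MDSC-NP-Blk by the rapamycin load. In all groups the genotype was WT and the treatment label was IL6. According to the methods, marrow of female C57BL/6 mice aged 6 to 10 weeks was cultured with GM-CSF and IL-6, each at 40 ng/ml, and nonadherent cells were harvested on day 3. An azide-bearing sugar was fed to the cells so that NPs could be attached by click chemistry, and whether the unmodified cells received it is not stated for these libraries. CD11b+Gr1+ cells were then isolated, which left a mixture of polymorphonuclear and monocytic MDSCs, and kept for 24 hours in IL-6 (40 ng/ml). The titles call the 4 libraries of a group biological replicates, but whether they came from separate mice is not stated, so p-values measure the spread between these libraries.

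Between 20604809 and 37855478 counts per library were assigned to genes. A tissue label names the CNS, but in all 12 libraries Sall1, Gfap, and Rbfox3, markers of microglia, astrocytes, and neurons, had 0 counts, and Mog, a marker of oligodendrocytes, had at most 1. Of the 6 CNS markers 4 lay at or under 3 counts in every library, and nearly all of their summed 50.14 to 88.46 CPM (counts scaled to the library total and its factor) came from Tmem119. The 8 myeloid markers, among them Itgam, Ly6g, and S100a8, summed to 24460 to 27940 CPM in MDSC, 33390 to 35360 with blank NPs, and 25820 to 29600 in CITED. In bulk RNA, fewer cells of a type and less RNA per cell cannot be told apart.

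These factors are known as a network that sets the fate of myeloid cells. PU.1, the ETS protein encoded by Spi1, is needed for all myeloid cells, and RUNX1 acts upstream of it in blood stem cells. C/EBPα commits progenitors to granulocytes and monocytes, whereas C/EBPβ drives the emergency granulopoiesis that cytokines call for, and C/EBPδ is an acute-phase factor. GFI1, a zinc finger repressor, favors neutrophils, and IRF8 and KLF4 favor monocytes. IRF8 and IRF4, which bind DNA together with PU.1, mark separate branches of dendritic cells.

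The upstream sequences of Gfi1, Cebpb, and Irf8, the 3 members with the largest change in CITED against MDSC, are shown. GFI1 and IRF8 are known to oppose each other. Of the 9 members, 7 were matched to a start in the RefSeq sequences used here, all but Spi1 and Cebpd. Each sequence is the 250 bases before the upstream-most listed start, from RefSeq on GRCm38.p6, read 5′ to 3′ on the strand of the gene. Gfi1 lies at chr5:107725806-107726055 (minus strand), Irf8 at chr8:120736108-120736357 (plus strand), and Cebpb at chr2:167688665-167688914 (plus strand). In Gfi1 and Irf8, capitals mark AATC, the core of the GFI1 motif, and in Cebpb they mark CACCC, a motif of KLF proteins, each on either strand so that the reverse complement is in capitals too.
Gfi1: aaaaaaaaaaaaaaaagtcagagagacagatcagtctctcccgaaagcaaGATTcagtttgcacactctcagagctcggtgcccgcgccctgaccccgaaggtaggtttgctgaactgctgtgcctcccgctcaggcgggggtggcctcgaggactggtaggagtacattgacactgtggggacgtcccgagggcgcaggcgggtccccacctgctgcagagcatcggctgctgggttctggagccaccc
Irf8: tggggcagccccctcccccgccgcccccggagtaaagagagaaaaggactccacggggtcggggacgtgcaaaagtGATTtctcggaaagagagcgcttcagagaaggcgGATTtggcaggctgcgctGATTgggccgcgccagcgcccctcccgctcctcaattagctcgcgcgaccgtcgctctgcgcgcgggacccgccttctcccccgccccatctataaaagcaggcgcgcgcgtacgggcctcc
Cebpb: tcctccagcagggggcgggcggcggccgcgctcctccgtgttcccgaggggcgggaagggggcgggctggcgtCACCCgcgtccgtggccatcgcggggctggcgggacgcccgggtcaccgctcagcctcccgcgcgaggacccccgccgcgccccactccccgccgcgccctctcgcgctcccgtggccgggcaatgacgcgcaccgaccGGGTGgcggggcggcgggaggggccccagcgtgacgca

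The Irf8 window held AATC 3 times, 174, 140, and 122 bases before the start, and the Gfi1 window held it once, 200 bases before the start. The same letters occurred in 69% of 32536 RefSeq windows of that length. AATC also occurred before both starts of Runx1 and the downstream start of Irf8. Cebpb held CACCC 177 and 38 bases before the start, a motif found in 52.1% of windows. CACCC was not particular to Cebpb. The Gfi1 window shown held it 111 and 5 bases before the start, not in capitals. It also occurred before the starts of Cebpa and Irf4 and the downstream start of Runx1. Gfi1 also held TTNCNNAA, a C/EBP motif present in 36.8% of windows, once. GAGGAA, the PU.1 core found in 23.4% of windows, occurred before the start of Irf4 and the downstream start of Runx1. GAANNGAAA, an IRF motif in 6.35% of windows, occurred before the downstream start of Gfi1, and TGTGGT, the RUNX motif in 14% of windows, in none of the members' windows. All were searched on both strands, and a match describes letters, not a bound site.

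To compare genes with each other, normalized counts (counts divided by the library size and its trimmed mean of M values, or TMM, factor) were divided by the length of the canonical transcript. On this scale, Cebpb and Spi1 were the most abundant members in each group. In MDSC, Cebpb had a mean of 4462 normalized counts per kilobase and Spi1 3639, followed by Cebpa at 1275. Cebpb and Spi1 lay at the percentiles 98.1 and 97.9 of the 17648 genes with a length. Gfi1 (579.1), Irf4 (505), and Runx1 (494.5) came next and did not separate, since libraries of neighbors in this order overlapped. Cebpd (372.8), Irf8 (242.8), and Klf4 (49.33) followed, each clear of its neighbors.

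The order of the levels per kilobase differed in the other groups in the place of Gfi1. Gfi1 was the fourth in MDSC and the last but for Klf4 in both MDSC-NP-Blk, at 316.9, and CITED, at 132.7. In MDSC-NP-Blk its libraries overlapped with those of Irf8 (349.2), and in CITED they lay clear of Irf8 (411.1) and of Klf4 (35.09). Cebpb reached 8979 in MDSC-NP-Blk and 12680 in CITED, against 5456 and 5931 for Spi1. In MDSC-NP-Blk, Runx1 (506.4) and Cebpd (504.1) overlapped, and so did Cebpd (512.7) and Runx1 (484.7) in CITED. Some places depend on the length used. With the mean length of all reference transcripts, Spi1 was above Cebpb in MDSC, at 5837 against 4462, and Runx1 (947.1) above Gfi1 (749.1), so that Gfi1 was no longer the fourth. In both particle groups Cebpb kept the top place, but only narrowly in MDSC-NP-Blk, at 8979 against 8752 for Spi1. Gfi1 stayed the last but for Klf4 in both (409.9 and 171.6).

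**Figure D1:**
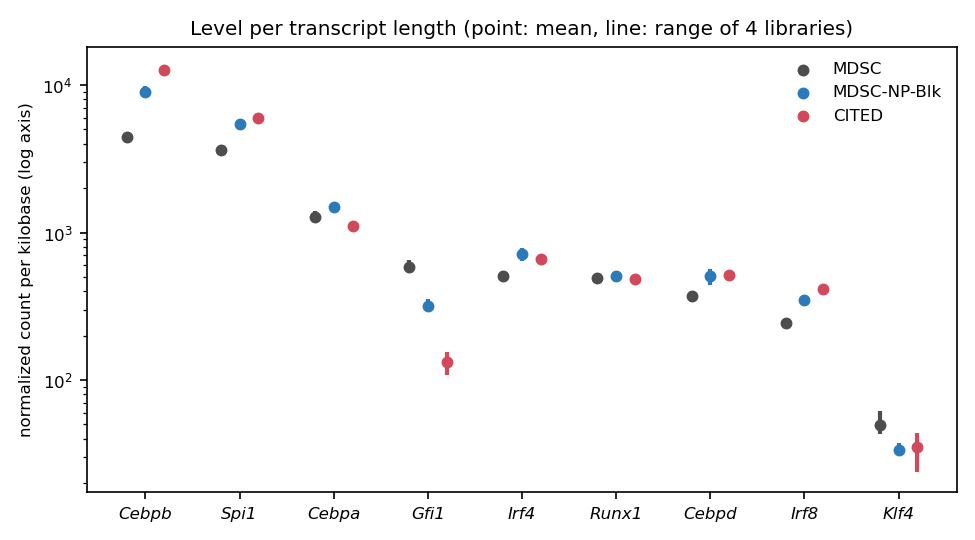
Levels of the 9 factors in normalized counts per kilobase of the canonical transcript (log axis), with a point for the mean and a line from the lowest to the highest of 4 libraries. Gfi1 steps down from 579.1 in MDSC to 132.7 in CITED, and Cebpb steps up from 4462 to 12680.

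Counts of members are read here against all 17676 genes tested with edgeR's quasi-likelihood test and Benjamini-Hochberg adjustment. In CITED against MDSC, 5 members rose, against 22.2% of all genes, and 3 fell, against 22.2% of all genes, at an adjusted p below 0.05. A log2 change of at least 1 was also reached by 1 that rose, Cebpb (3.28% of all genes), and 1 that fell, Gfi1 (6.7%). In MDSC-NP-Blk against MDSC, 6 rose (19.9% of all genes) and 2 fell (18.6%), with 1 past both thresholds upward, Cebpb (1.88%), and 0 downward (2.86%). In CITED against MDSC-NP-Blk, 2 rose (10.5%) and 2 fell (11.4%), with 0 past both thresholds upward (0.651%) and 1 downward, Gfi1 (2%).

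Members are well expressed, and such genes are called more often. Of the 10555 genes with a mean above 50 normalized counts, 67.9% were called in CITED against MDSC, 60.4% in MDSC-NP-Blk against MDSC, and 34.9% in CITED against MDSC-NP-Blk. The members called in these comparisons were 8, 8, and 4 of 9. The libraries of the compared groups did not overlap for 7 members in the first comparison (42.5% of all genes), 8 in the second (35.6%), and 4 in the third (21.2%). The comparisons with MDSC share the 4 MDSC libraries, so their calls are not independent of each other.

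**Figure D2:**
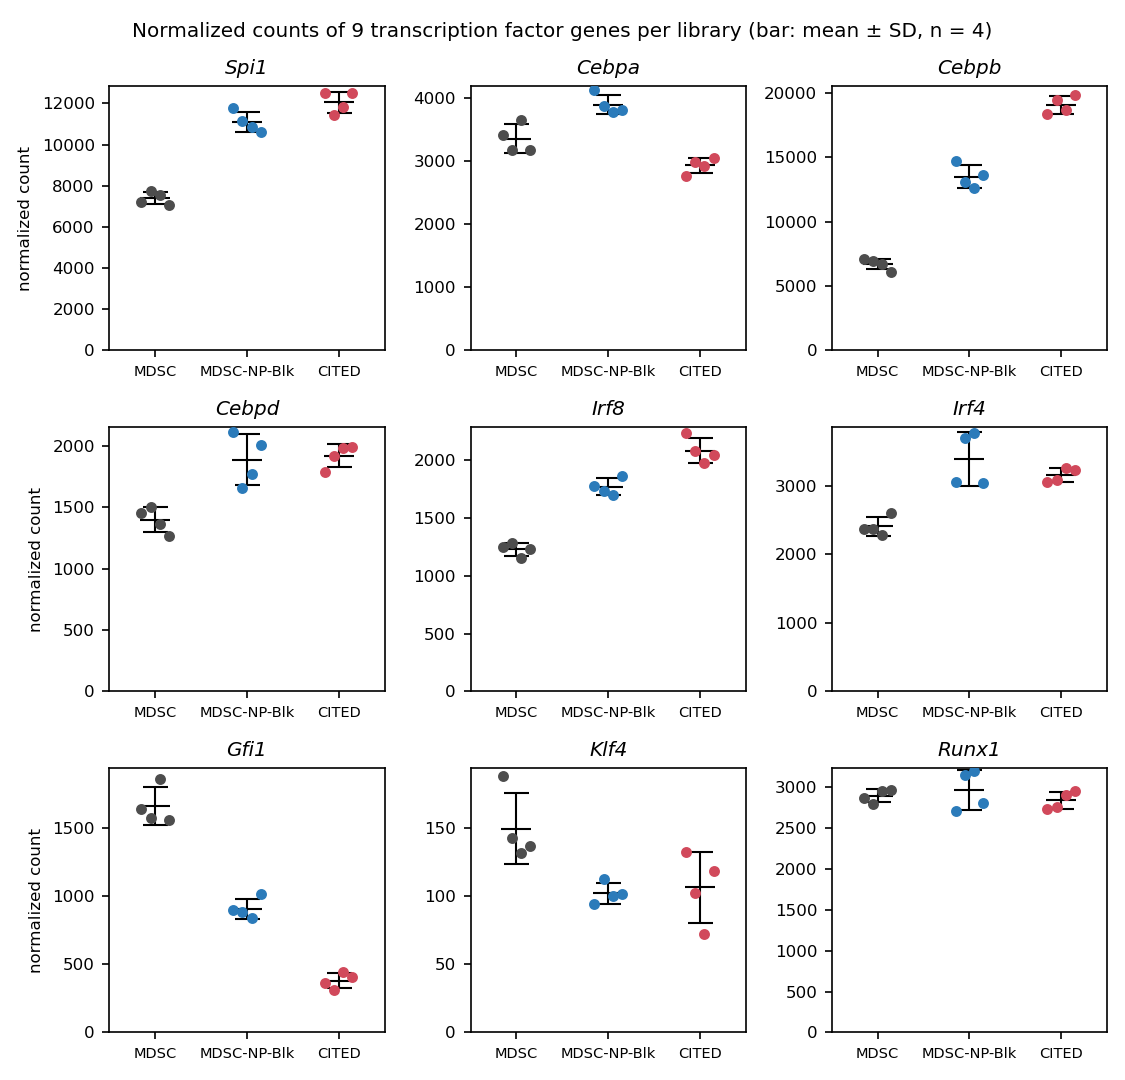
Normalized counts of each factor in the 12 libraries, with a bar for the mean ± SD (n = 4) and axes that start at 0. Gfi1 falls in steps from MDSC through MDSC-NP-Blk to CITED, Cebpb rises in the same order, and Runx1 overlaps in all groups.

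Among the C/EBP factors, Cebpb rose in all 3 comparisons. It encodes C/EBPβ and lies at chr2:167530835-167532338 on the plus strand of GRCm39 as a single exon. MDSC libraries had 7062, 6919, 6740, and 6121 normalized counts. MDSC-NP-Blk libraries had 14700, 13060, 12640, and 13610. CITED libraries had 18320, 19430, 18700, and 19840. All CITED libraries lay above all MDSC-NP-Blk libraries, and these lay above all MDSC libraries.

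The means of Cebpb were 6711 ± 414.3 (SD, n = 4) in MDSC, 13500 ± 890.5 with blank NPs, and 19070 ± 688.7 in CITED. The log2 fold change was 1.51 ± 0.0521 (SE) in CITED against MDSC (edgeR adjusted p = 2.87e-22) and 1.01 ± 0.0516 in MDSC-NP-Blk against MDSC (edgeR adjusted p = 2.65e-17). It was 0.50 ± 0.0510 in CITED against MDSC-NP-Blk (edgeR adjusted p = 1.65e-09). The particle comparison lies at the fold threshold. DESeq2 gave a log2 change of 0.9985 there, with which Cebpb was not counted past both thresholds. An exon of Peds1 overlaps Cebpb on the other strand, and the strand setting of the counting is not stated, so reads of this stretch cannot be told apart. The same holds for exons of Spidr over Cebpd, of Gm45091 over Cebpa, of Gm26626 over Runx1, and of A430072P03Rik over Gfi1. With an offset for transcript length and GC content, the log2 change of Cebpb in MDSC-NP-Blk against MDSC was 0.66. With this offset it was 1.03 in CITED against MDSC and 0.38 in CITED against MDSC-NP-Blk.

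Cebpa, which encodes the factor that commits progenitors to the granulocyte and monocyte lineage, moved in opposite directions with the particle and with its load. It lies at chr7:34818718-34821353 on the plus strand. MDSC libraries had 3407, 3173, 3647, and 3168 normalized counts. MDSC-NP-Blk libraries had 4115, 3873, 3767, and 3804. CITED libraries had 2760, 2983, 2922, and 3036. CITED was lowest, MDSC-NP-Blk highest, and MDSC between them, with no overlap.

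Cebpa thus rose by 0.22 ± 0.0541 (log2, SE) in MDSC-NP-Blk against MDSC (edgeR adjusted p = 0.00142). It fell by 0.41 on the log2 scale in CITED against MDSC-NP-Blk (edgeR adjusted p = 3.45e-07), a change of -24.8%. It fell by 0.19 in CITED against MDSC (edgeR adjusted p = 0.00327). The rise with the blank particle depends on the scaling. It became -0.05 with library totals only, where the median of all genes with a mean above 50 counts shifted to -0.26, and -0.04 with the offset for length and GC content. Relative to that median, the change with library totals was 0.21. In CITED against MDSC the value was -0.58 with the offset (edgeR adjusted p = 3.11e-13) and -0.47 with library totals, or -0.21 relative to that median.

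Cebpd, the acute-phase member of the family, rose with the particle. It lies at chr16:15705150-15708895 on the plus strand. MDSC libraries had 1455, 1498, 1367, and 1267 normalized counts, against 2111, 1660, 1774, and 2010 in MDSC-NP-Blk. CITED libraries had 1786, 1920, 1986, and 1990, which overlapped with MDSC-NP-Blk and lay above MDSC. The log2 fold change was 0.43 ± 0.0700 (SE) in MDSC-NP-Blk against MDSC (edgeR adjusted p = 4.44e-06) and 0.46 ± 0.0701 in CITED against MDSC (edgeR adjusted p = 1.08e-06). In CITED against MDSC-NP-Blk it was 0.03, with a 95% interval from -0.11 to 0.17 (edgeR adjusted p = 0.857). With library totals only, Cebpd rose by 0.17 in MDSC-NP-Blk against MDSC and by 0.19 in CITED against MDSC. Relative to the median of all genes with a mean above 50 counts, which shifted too, these were 0.43 and 0.44. Both rises passed under all 20 alternatives, with the highest adjusted p (edgeR or DESeq2) at 0.0487 and 0.0275.

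Thus the 3 C/EBP genes had different patterns, which ratios within a library show without any scaling between libraries. Such ratios still carry any trend of a library with transcript length or GC content. Cebpb exceeded Cebpa by counts in all libraries, at 2.073, 2.181, 1.848, and 1.932 times in MDSC. With blank NPs the ratio was 3.572, 3.373, 3.356, and 3.579, and in CITED it was 6.635, 6.512, 6.4, and 6.533. The groups did not overlap, and CITED varied least. Cebpd over Cebpa was 0.3748 to 0.472 in MDSC, 0.4285 to 0.5284 with blank NPs, and 0.6435 to 0.6798 in CITED, so that CITED lay above both others, which overlapped.

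Spi1, the gene of PU.1, rose with the particle. It lies at chr2:90912562-90946101 on the plus strand. MDSC libraries had 7212, 7745, 7574, and 7075 normalized counts. MDSC-NP-Blk libraries had 11760, 11160, 10860, and 10600, and CITED libraries 12490, 11460, 11810, and 12490. All libraries with particles lay above all MDSC libraries, and both particle groups overlapped with each other.

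The mean of Spi1 was 7402 ± 311 (SD, n = 4) in MDSC, 11100 ± 497.1 with blank NPs, and 12060 ± 513.3 in CITED. The log2 fold change was 0.58 ± 0.0481 (SE) in MDSC-NP-Blk against MDSC (edgeR adjusted p = 3.62e-12) and 0.70 ± 0.0481 in CITED against MDSC (edgeR adjusted p = 1.56e-14). In CITED against MDSC-NP-Blk it was 0.12, with a 95% interval from 0.02 to 0.22, which did not pass (edgeR adjusted p = 0.0698). It passed with DESeq2 (adjusted p = 0.0251), with a replicate block (edgeR adjusted p = 0.0488), without MDSC-NP-Blk replicate 1 (edgeR adjusted p = 0.0216), and without CITED replicate 2 (edgeR adjusted p = 0.0417). With the offset for length and GC content it was 0.04 (edgeR adjusted p = 0.567), and Spi1 rose by 0.41 in CITED against MDSC and by 0.37 in MDSC-NP-Blk against MDSC. Relative to Cebpa, Spi1 rose through the groups without overlap. The ratio was 2.077 to 2.441 in MDSC, 2.788 to 2.884 with blank NPs, and 3.842 to 4.525 in CITED.

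Runx1, the factor that works with CBFβ, did not differ at the threshold in any comparison. It lies at chr16:92398354-92623037 on the minus strand. MDSC libraries had 2868, 2802, 2959, and 2964 normalized counts, MDSC-NP-Blk libraries 2714, 3148, 3203, and 2806, and CITED libraries 2738, 2762, 2905, and 2958. All groups overlapped. The log2 fold changes were -0.03 in CITED against MDSC, with a 95% interval from -0.14 to 0.09, 0.04 in MDSC-NP-Blk against MDSC (-0.08 to 0.15), and -0.06 in CITED against MDSC-NP-Blk (-0.18 to 0.05).

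Runx1 has the longest transcript of the 9, at 5861 bases, and the lowest GC content, at 46.4%, and its value moved when both were corrected together. Across 10542 genes, the deviation of a library from the mean correlated with transcript length at a Spearman coefficient of 0.2181 to 0.3465 in MDSC, -0.4219 to 0.09187 with blank NPs, and -0.3415 to -0.1867 in CITED. With GC content it correlated at -0.2614 to -0.2188, -0.1011 to 0.1952, and 0.1929 to 0.3069. With an offset for length and GC content, Runx1 rose by 0.22 (log2) in CITED against MDSC (edgeR adjusted p = 0.000159) and by 0.19 in MDSC-NP-Blk against MDSC (edgeR adjusted p = 0.000766). With library totals only its log2 changes were -0.30 and -0.23, respectively (edgeR adjusted p = 3.94e-05 and 0.00145). The median of all genes shifted to -0.26 in both cases, and relative to it these changes were -0.04 and 0.03.

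The IRF factors rose with the particle. Irf8, the gene of a factor that promotes monocytes and the cDC1 branch of dendritic cells, lies at chr8:121463096-121485659 on the plus strand. MDSC libraries had 1254, 1286, 1156, and 1231 normalized counts. MDSC-NP-Blk libraries had 1782, 1737, 1700, and 1867. CITED libraries had 2235, 2082, 1981, and 2044. No groups overlapped, and the order was MDSC, MDSC-NP-Blk, and CITED from low to high.

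The log2 fold change of Irf8 was 0.76 ± 0.0604 (SE) in CITED against MDSC (edgeR adjusted p = 7.6e-13) and 0.52 ± 0.0604 in MDSC-NP-Blk against MDSC (edgeR adjusted p = 7.38e-09). Between CITED and MDSC-NP-Blk it was 0.24 ± 0.0598 (edgeR adjusted p = 0.00321), or 17.7% higher. It stayed positive and past the threshold under all 20 alternatives in each comparison, with the highest adjusted p at 0.0212 in the last. Of the 31-base words in Irf8 transcripts, 2.26% also occur in transcripts of other genes, and of Klf4 6.19%. The other members were below 0.5%.

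Irf4, needed for the cDC2 branch and for some macrophage programs, lies at chr13:30933209-30950959 on the plus strand. MDSC libraries had 2372, 2369, 2279, and 2603 normalized counts, and CITED libraries 3058, 3075, 3260, and 3224. MDSC-NP-Blk libraries split into 3058 and 3034 in replicates 1 and 4 and 3689 and 3761 in replicates 2 and 3. Runx1 was likewise higher in replicates 2 and 3 of this group. The correlation with transcript length was -0.4219 and -0.2429 in replicates 1 and 4, and -0.04688 and 0.09187 in replicates 2 and 3. With GC content it was 0.1952 and 0.1443 in the former and -0.002045 and -0.1011 in the latter. The part of either in this split was not tested.

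Irf4 rose by 0.49 ± 0.0635 (log2, SE) in MDSC-NP-Blk against MDSC (edgeR adjusted p = 6.53e-08) and by 0.39 ± 0.0637 in CITED against MDSC (edgeR adjusted p = 3.23e-06). Between CITED and MDSC-NP-Blk the value was -0.10, with a 95% interval from -0.23 to 0.03 (edgeR adjusted p = 0.28). With library totals only, the value in CITED against MDSC was 0.12 (edgeR adjusted p = 0.141). Relative to the median of all genes with a mean above 50 counts, which shifted too, it was 0.38. The ratio of Irf4 to Irf8 was 1.842 to 2.115 in MDSC and 1.625 to 2.212 in MDSC-NP-Blk, which overlapped, and 1.368 to 1.646 in CITED. A library of CITED, at 1.646, lay within the range of MDSC-NP-Blk, and all 4 lay below MDSC.

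Gfi1, the gene of the repressor that favors neutrophils, fell the most. It lies at chr5:107864523-107873902 on the minus strand. MDSC libraries had 1636, 1571, 1859, and 1559 normalized counts. MDSC-NP-Blk libraries had 893.1, 881, 840.1, and 1011. CITED libraries had 359, 309.8, 442.9, and 406.2. The groups did not overlap, and the highest CITED library was far below the lowest of MDSC-NP-Blk.

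Gfi1 had means of 1656 ± 139.6 (SD, n = 4), 906.4 ± 73.52, and 379.5 ± 57.78. It fell by 2.12 on the log2 scale in CITED against MDSC (SE 0.0903, edgeR adjusted p = 5.75e-20), a change of -77.0%. It fell by 0.87 in MDSC-NP-Blk against MDSC (SE 0.0840, edgeR adjusted p = 1.49e-10). It fell by 1.25 in CITED against MDSC-NP-Blk (SE 0.0910, edgeR adjusted p = 6.46e-13), a change of -58.0%. Among the 10555 genes with a mean above 50, 0.947% fell more than Gfi1 in the first comparison, 3.63% in the second, and 0.881% in the third. In the other direction, 0.843% rose more than Cebpb in CITED against MDSC.

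Some markers of other cells moved beside this fall. The 4 progenitor markers summed to 123.2 to 140.8 CPM in MDSC, 110.7 to 131.9 with blank NPs, and 70.88 to 79.81 in CITED. The 3 eosinophil markers summed to 1252 to 1494, 1001 to 1197, and 407.8 to 415.5 CPM, and none was at 0. Of the progenitor markers, Myb (57.89 to 64.24 CPM in MDSC, 12.74 to 18.21 in CITED) and Hoxa9 (7.372 to 10.05 and 2.882 to 3.815) were lower in CITED without overlap, whereas Cd34 and Kit overlapped, and Kit was highest with blank NPs. Of the eosinophil markers, Epx and Prg2 were lower in CITED than in MDSC and Siglecf was higher, at 12.79 to 14.17 against 15.62 to 18.21. The 4 megakaryocyte markers summed to 186.5 to 208.7, 278.3 to 297.9, and 303.7 to 332.7 CPM, and the 5 mast cell and basophil markers to 152.5 to 166.1, 165.1 to 189.7, and 101.3 to 109.8. Of the megakaryocyte markers, Pf4 and Ppbp were higher in CITED than in MDSC, whereas Gp9 and Itga2b overlapped. Itga2b was 53.42 to 68.74 CPM in MDSC, 76.57 to 91.52 with blank NPs, and 50.64 to 56.31 in CITED. The part of all these markers in the fall of Gfi1 was not tested.

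Klf4, the gene of a factor that promotes monocytes, was the lowest member. It lies at chr4:55527139-55532528 on the minus strand. MDSC libraries had 188.3, 142.4, 131.4, and 136.5 normalized counts, MDSC-NP-Blk libraries 94.14, 112.8, 99.81, and 101.5, and CITED libraries 132.6, 102.4, 71.97, and 118.7. MDSC replicate 1 was high and CITED replicate 3 low. Only MDSC-NP-Blk was clear of MDSC.

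Klf4 fell by 0.55 on the log2 scale in MDSC-NP-Blk against MDSC (edgeR adjusted p = 0.0117) and fell by 0.50 in CITED against MDSC (edgeR adjusted p = 0.0207). Both calls rest on single libraries. Without MDSC replicate 1 the values were -0.42 (edgeR adjusted p = 0.0882) and -0.36 (edgeR adjusted p = 0.132), and without CITED replicate 3 the second was -0.35 (edgeR adjusted p = 0.117). Between CITED and MDSC-NP-Blk the log2 value was 0.05, with a 95% interval from -0.32 to 0.42.

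**Figure D3:**
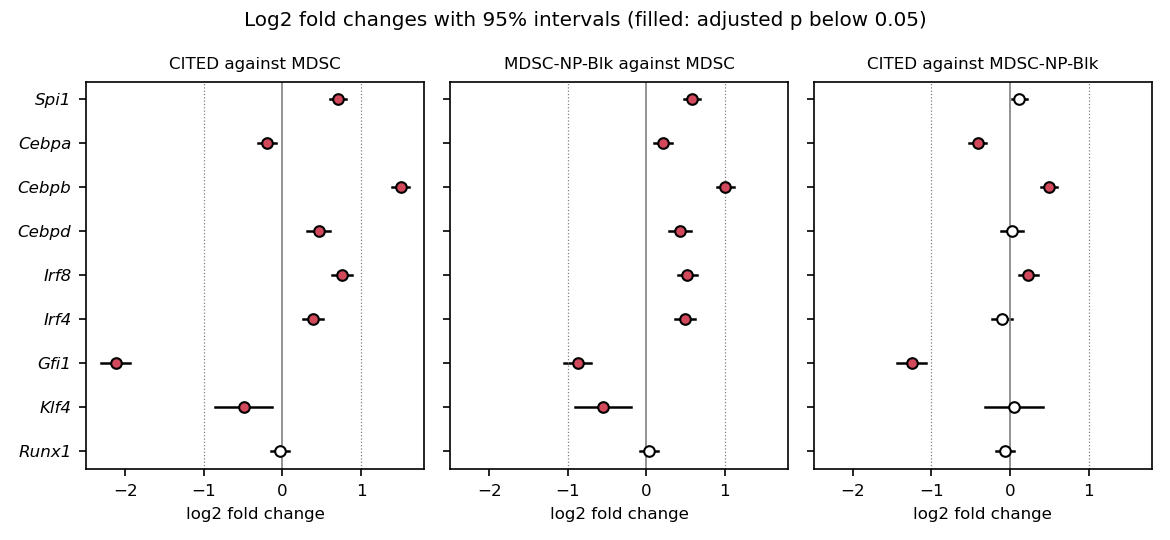
Log2 fold changes of the 9 factors in the 3 comparisons, with 95% intervals from the edgeR fit, filled points for an adjusted p below 0.05, and dotted lines at a log2 change of 1 in each direction. Cebpb and Gfi1 lie beyond the others on the 2 sides in CITED against MDSC, at 1.51 and -2.12.

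The balance of Irf8 to Gfi1, which are known to oppose each other in monocyte and neutrophil fate, was read within each library. Irf8 over Gfi1 was 0.7665, 0.8187, 0.6215, and 0.7894 in MDSC. With blank NPs it was 1.996, 1.972, 2.024, and 1.847, and it was 6.226, 6.72, 4.472, and 5.031 in CITED. Gfi1 thus had more counts than Irf8 in all 4 MDSC libraries and fewer in all 8 others. These are ratios of counts and not of levels per length. The geometric means were 0.7449, 1.958, and 5.539.

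Irf8 over Cebpa was 0.3169 to 0.4053 in MDSC, 0.4331 to 0.491 with blank NPs, and 0.673 to 0.8097 in CITED, again without overlap. Klf4 over Gfi1 was 0.07065 to 0.1151 in MDSC and 0.1003 to 0.128 in MDSC-NP-Blk, which overlapped, and 0.1625 to 0.3693 in CITED, above both.

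**Figure D4:**
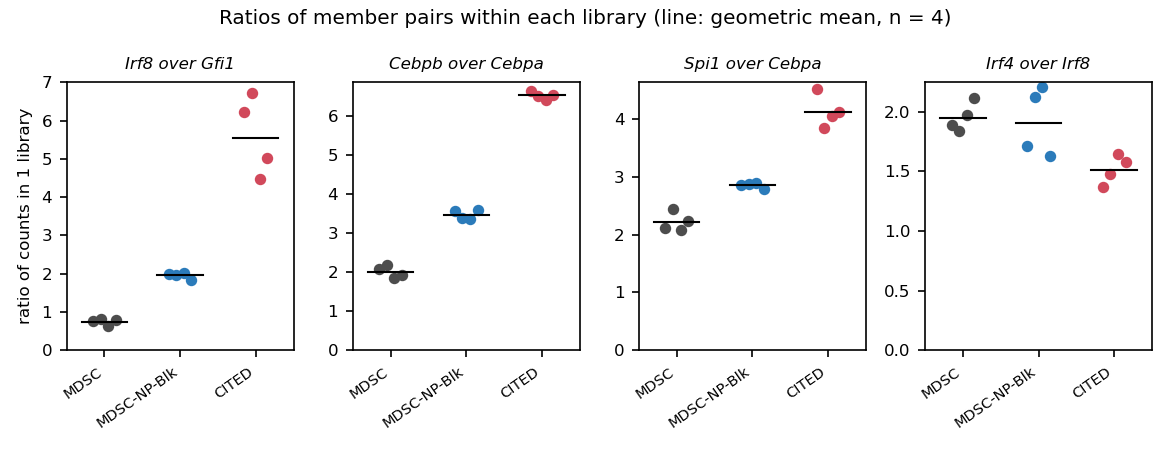
Ratios of counts of 4 member pairs within each library, with a line for the geometric mean of 4 libraries and axes that start at 0. Irf8 over Gfi1 separates the groups, from 0.6215 to 0.8187 in MDSC up to 4.472 to 6.72 in CITED, and Irf4 over Irf8 overlaps between MDSC and MDSC-NP-Blk.

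The genes whose log2 CPM was most like that of each member over the 12 libraries are given as a description. The 12 points share 3 groups, so the coefficients include the differences between groups. Hjurp, a centromere chaperone, and Iqgap3 were most like Gfi1 (Pearson r = 0.9914 and 0.992). F10, which encodes coagulation factor X, and Npc2, a lysosomal sterol carrier, were most like Irf8 (0.9934 and 0.9921). Csf1, which encodes the macrophage growth factor, and Irak3 were most like Irf4 (0.9886 and 0.9881). Prr5l and Phc2 were most like Cebpb (0.9957 and 0.9955), and Cdc42ep2 and Prr13 most like Spi1 (0.9938 and 0.9931). Slx9 and Pex6 were most like Cebpd (0.9781 and 0.9729), and Lbp and Kif2a most like Cebpa (0.9434 and 0.943). The closest genes to Runx1, Pstpip2 (0.9162), and to Klf4, Erg28 (0.8731), were less alike.

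For the lists that follow, the shares of all genes with a mean above 50 normalized counts that rose and fell were 35.6% and 32.3% in CITED against MDSC. They were 32.1% and 28.3% in MDSC-NP-Blk against MDSC, and 16.9% and 18% in CITED against MDSC-NP-Blk. The median log2 changes of these genes were 0.016, 0.0025, and 0.0073 in the same order. Where a median over all genes is given below, it is that of all 17676 genes tested. The lists also count genes under that mean, and 14 of the 19 dendritic cell genes lay above it.

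Other members of the same families were counted first. Of 29 genes of the C/EBP, IRF, GFI, KLF, RUNX, and ETS families, 15 rose and 10 fell in CITED against MDSC, with a median log2 change of 0.21 against -0.05 over all genes. In MDSC-NP-Blk against MDSC 18 rose and 4 fell (median 0.32 against -0.03), and in CITED against MDSC-NP-Blk 5 rose and 9 fell (median -0.04 against 0). Among them, Cebpe, the factor of granulocyte maturation, had the pattern of Cebpa, at 0.26 in MDSC-NP-Blk against MDSC and -0.61 in CITED against MDSC-NP-Blk (edgeR adjusted p = 0.000309 and 3.14e-10). The interferon regulatory factor genes Irf5, Irf7, and Irf9 rose in CITED against MDSC-NP-Blk by 0.52, 0.63, and 0.62 on the log2 scale, against 0.24 for Irf8. Gfi1b, the paralog of Gfi1, went the other way and rose by 1.18 in CITED against MDSC (edgeR adjusted p = 3.03e-07), from a mean of 73.9 to 166.7 normalized counts. Among ETS genes, Spib, a close relative of Spi1, and Ets1 fell in CITED against MDSC-NP-Blk (log2 changes -1.03 and -0.91). Klf2, of the KLF family, rose by 1.42 in CITED against MDSC and by 1.24 in MDSC-NP-Blk against MDSC. It rose by 0.18 in CITED against MDSC-NP-Blk.

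Of 28 partners and cofactors, 27 were tested, and 11 rose and 13 fell in CITED against MDSC (median -0.16). In MDSC-NP-Blk against MDSC 10 rose and 9 fell (median -0.03), and in CITED against MDSC-NP-Blk 5 rose and 4 fell (median -0.02). Trib1, an adaptor known to direct C/EBPα to degradation, rose in MDSC-NP-Blk against MDSC, from a mean of 784.5 to 2082 normalized counts (log2 change 1.41, edgeR adjusted p = 2.49e-16), and it was 2201 in CITED. Junb, an AP-1 subunit, rose by 1.60 and 1.87 in the 2 comparisons with MDSC. Rcor1, a corepressor that works with GFI1, fell by 0.66 in CITED against MDSC (edgeR adjusted p = 9.55e-12), whereas Kdm1a, its partner demethylase, rose by 0.25 (edgeR adjusted p = 0.000896). Cbfb, the partner of RUNX1, fell by 0.19 in CITED against MDSC (edgeR adjusted p = 0.00751). Batf3, the partner of IRF8 in cDC1, was at 69, 76.99, and 75.94 normalized counts and did not pass in any comparison.

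Of 40 other factors of myeloid development, 19 rose and 12 fell in CITED against MDSC (median 0.15), 22 and 9 in MDSC-NP-Blk against MDSC (median 0.25), and 5 and 16 in CITED against MDSC-NP-Blk (median -0.07). Myb and Hoxa9, factors of progenitors, fell in CITED against MDSC (log2 changes -1.97 and -1.33) and in CITED against MDSC-NP-Blk (-1.003 and -0.92). Egr1 and Egr2, which promote macrophages, rose by 2.40 and 1.57 in MDSC-NP-Blk against MDSC. Rara and Rxra, nuclear receptors of granulocyte maturation, rose by 1.00 and 0.93 in CITED against MDSC. Ikzf1, a lymphoid and myeloid factor, fell by 0.82 in that comparison.

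Of 12 myeloid growth factor receptors, some of which are known targets of PU.1 and C/EBP factors, 7 rose and 0 fell in CITED against MDSC (median 0.60). In MDSC-NP-Blk against MDSC 9 rose and 0 fell (median 0.54), and in CITED against MDSC-NP-Blk 5 rose and 1 fell, Kit (median 0.12). With library totals only, 2 fell in CITED against MDSC and 1 in MDSC-NP-Blk against MDSC. Csf3r, the G-CSF receptor, had means of 4329, 10980, and 12600 normalized counts and rose by 1.54 in CITED against MDSC (edgeR adjusted p = 6.37e-22). Csf1r, the M-CSF receptor, rose by 1.00, from 11290 to 22510 (edgeR adjusted p = 1.45e-19). Csf2rb, the shared β chain, rose by 0.51 in MDSC-NP-Blk against MDSC and by 0.48 in CITED against MDSC-NP-Blk, although reads of it and its near copy Csf2rb2 may be split between them.

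Granule and surface genes known to need C/EBP factors or Gfi1 did not move as a block. Of 17 genes, 16 were tested, and 8 rose and 8 fell in CITED against MDSC (median -0.03), 11 and 4 in MDSC-NP-Blk against MDSC (median 0.41), and 2 and 11 in CITED against MDSC-NP-Blk (median -0.39). Those of azurophil granules, made early in neutrophil development, fell the most in CITED against MDSC. The log2 changes of Mpo, Elane, Ctsg, and Prtn3 were -4.41, -3.27, -2.70, and -2.17. Camp and Ngp, of specific granules, fell in CITED against MDSC-NP-Blk (-1.09 and -1.05). Mmp8, Mmp9, and Retnlg, genes of late neutrophils, rose by 1.47, 1.23, and 1.61 in CITED against MDSC.

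Monocyte and macrophage genes were split in each comparison. Of 18, 8 rose and 9 fell in CITED against MDSC (median -0.08), 7 and 8 in MDSC-NP-Blk against MDSC (median 0.06), and 6 and 7 in CITED against MDSC-NP-Blk (median -0.12). Cd14, the LPS coreceptor, rose by 2.97 in CITED against MDSC, whereas F13a1, Mrc1, and C1qa fell (log2 changes -2.63, -2.81, and -4.05). Of 19 dendritic cell genes, 7 rose and 9 fell (median -0.22), 7 and 6 (median -0.15), and 2 and 5 (median -0.08) in the same order. Clec9a, a cDC1 gene, rose by 1.29 in CITED against MDSC, at means of 48.27 and 117.8 normalized counts. Itgae, also a cDC1 gene, fell by 1.15 (edgeR adjusted p = 0.0385), at means of 36.21 and 16.35. Mgl2 and Ccl17, linked to the cDC2 branch that needs IRF4, fell there (-1.69 and -1.80), where Irf4 rose. Pdcd1lg2 and Ccr7, of the same list, rose there by 0.26 each (edgeR adjusted p = 0.02 and 0.00622). The 5 markers of conventional dendritic cells summed to 7.589 to 12.44 CPM over all libraries.

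Genes that C/EBPβ is known to drive in activated or suppressive myeloid cells moved in both directions. Of 15, 8 rose and 3 fell in CITED against MDSC (median 0.37), 11 and 2 in MDSC-NP-Blk against MDSC (median 0.51), and 3 and 7 in CITED against MDSC-NP-Blk (median -0.33). Il1b and Il6 rose by 1.92 and 1.68 in MDSC-NP-Blk against MDSC, and Arg1, the arginase of MDSCs, by 0.70. The 2 that fell there were Ccl2 and Nos2 (log2 changes -6.21 and -0.59), Ccl2 from a mean of 1242 to 15.86 normalized counts. Nos2 varied widely with blank NPs, at 1371 to 3721 normalized counts, which overlapped with MDSC (3394 to 3960). With DESeq2 the genes of this list that fell there went from 2 to 1. In CITED against MDSC-NP-Blk, where Cebpb rose, Nos2, Arg1, and S100a9 fell (log2 changes -2.53, -0.34, and -0.44), whereas Cd274, which encodes PD-L1, rose by 0.34. Ccl2 rose by 1.03 in that comparison, to a mean of 34.22 normalized counts in CITED. With library totals only, each of the 8 lists had a count that moved by over 1.5 times in a comparison with MDSC, toward fewer genes that rose in 5 lists and more that fell in the other 3. Here the genes that fell in CITED against MDSC went from 3 to 5. The lists were chosen with results of these data known, so their counts are descriptions.

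**Figure D5:**
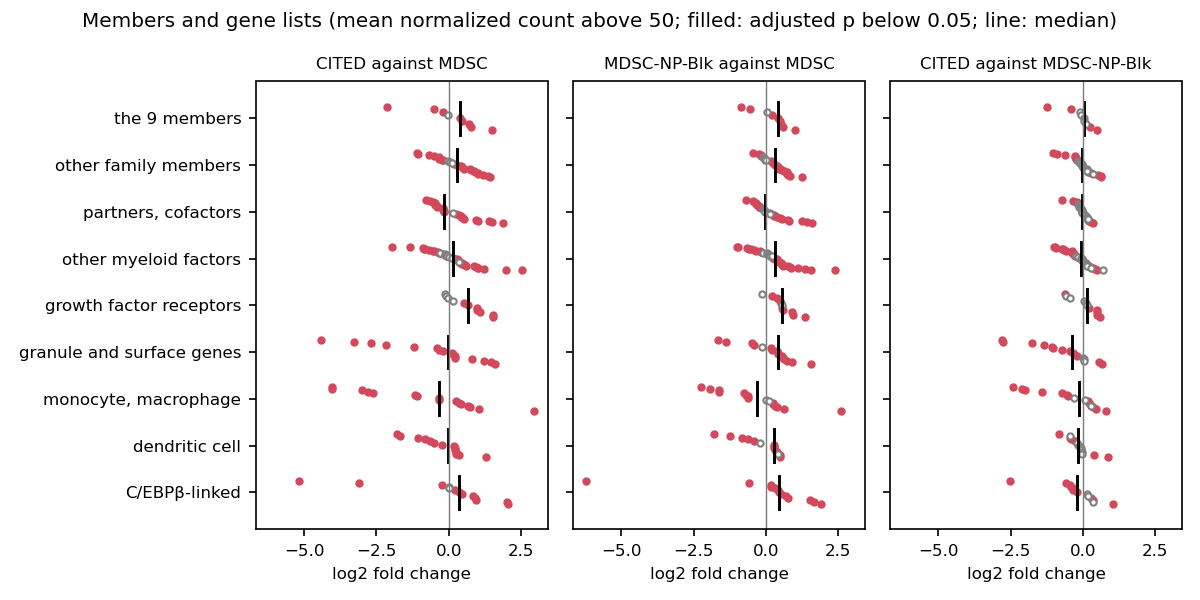
Log2 fold changes of the 9 members and of the genes in the 8 lists with a mean above 50 normalized counts, in the 3 comparisons, with filled points for an adjusted p below 0.05 and a line for the median of the genes drawn. Growth factor receptors lie mostly above 0 in both comparisons with MDSC, and the other lists hold genes on both sides.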

How the data were processed

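Poly(A)-enriched RNA was measured in 12 libraries, 4 per group. A table of whole-number counts, 1 per symbol and library, was deposited by the authors, who used Salmon 1.4.0 on GRCm39 and R 4.3.2, per the labels. It is not normalized. The GENCODE release, and the strand setting, are not given in the sources used here. Groups came from the titles. An entry without a symbol held 0 counts and was dropped.

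All 17676 symbols whose counts summed to at least 2 were tested with glmQLFit and glmQLFTest of edgeR 4.0.16 in R 4.3.3, with TMM factors, the group as the only term, all 12 libraries, and Benjamini-Hochberg adjustment. TMM factors were 1.118 to 1.148 in MDSC and 0.9214 to 0.9465 in the others. SE is the size of a log2 fold change over the root of its F statistic. A floor of 3 counts was used, which covers counting error only. Transcript lengths, positions, and shared words came from GENCODE release M39 on GRCm39, and upstream sequences from RefSeq. No 2 libraries of a group agreed within sampling noise (lowest chi-square per degree of freedom 4.718). In MDSC-NP-Blk this value was 5.691 for replicates 1 and 4 and 5.907 for replicates 2 and 3. It was 15.73 to 21.8 for the other pairs of that group, against at most 9.598 within MDSC or CITED. The MDSC-NP-Blk libraries thus fell into 2 pairs over all genes, and the cause was not tested.

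The 9 members and all lists were chosen with earlier results of these data known. From each list the text names a part of the genes with the 3 lowest p-values in each direction in CITED against MDSC or CITED against MDSC-NP-Blk, or past both thresholds in any comparison. Arg1, Batf3, Cbfb, Ccr7, Kdm1a, and Pdcd1lg2 fall outside this rule and were named after their values were seen. For each member the 2 genes with the highest Pearson correlation of log2 CPM (prior count 2) are named. Tried besides were DESeq2 1.42.0, RLE factors, library totals, filterByExpr, no filter, fits of 8 libraries, a replicate block, an offset for length and GC content, glmTreat, and leaving out each library. The scripts were tested on simulated data. Figures used Python 3.11.15 and matplotlib 3.10.9.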

Additional observations from a re-analysis of the deposited data

How the results depend on the processing

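Of 540 refitted log2 fold changes of members, 521 kept their direction and side of the threshold, 9 reversed, and with the same direction 6 newly passed and 4 no longer passed. Of the 9, 2 of Runx1 also newly passed and 2 of Cebpa no longer passed. The count past both thresholds upward in MDSC-NP-Blk against MDSC, 1 (Cebpb), became 0 with DESeq2, RLE factors, library totals only, the 8 libraries alone, the length and GC offset, and glmTreat, and was 0 to 1 with a library left out (0 without MDSC replicate 4 or MDSC-NP-Blk replicate 1). Downward, that comparison went from 0 to 1 (Gfi1) with library totals only, and CITED against MDSC-NP-Blk from 1 to 0 with glmTreat. The members lower at the adjusted p in MDSC-NP-Blk against MDSC were 1 to 2 with a library left out, where Klf4 was lost without MDSC replicate 1.

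With library totals only, the median of genes with a mean above 50 moved to -0.26 in both comparisons with MDSC, and the share of calls that were higher from 50% to 25.7% in CITED against MDSC and from 51.7% to 21.4% in MDSC-NP-Blk against MDSC. Reversed values were those of Cebpa in MDSC-NP-Blk against MDSC (-0.0474 with totals, -0.0372 with the offset), Runx1 in CITED against MDSC (0.22 with the offset), in MDSC-NP-Blk against MDSC (-0.23 with totals) and in CITED against MDSC-NP-Blk (0.0233 with the offset). With a library left out, Runx1 in MDSC-NP-Blk against MDSC was -0.0041 to 0.0737, and in CITED against MDSC-NP-Blk Cebpd was -0.0313 to 0.0856 and Klf4 -0.0646 to 0.2036. None of these left-out values passed the threshold, and the cause was not tested.

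The replicate numbers were not shown to pair the libraries, since 12 pairs with the same number correlated at -0.05981 to 0.14 and 36 others at -0.161 to 0.1575. With the replicate block, the members counted were the same except for Spi1 in CITED against MDSC-NP-Blk (0.12, edgeR adjusted p = 0.0488), and all genes called went from 3883 to 4182 there. Among the lists, the genes linked to C/EBPβ that rose in CITED against MDSC-NP-Blk went from 3 to 5 with the block and without MDSC-NP-Blk replicate 3, without which partners that fell went from 4 to 2. Family members that fell in MDSC-NP-Blk against MDSC went from 4 to 2 without MDSC replicate 1 or replicate 4. Klf4 had the fewest counts of the members.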
